A study of Mus musculus with 16 samples.

Results

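Prostaglandins and leukotrienes are lipid signals made from arachidonic acid, a fatty acid released from membranes. The cyclooxygenases Ptgs1 and Ptgs2 turn it into prostaglandin H2, which the terminal synthases Hpgds, Ptges and Tbxas1 convert into prostaglandin D2, prostaglandin E2 and thromboxane A2. The lipoxygenase Alox5, working with the membrane protein Alox5ap, opens the leukotriene branch. Ptger2 and Ptger4 are receptors for prostaglandin E2 and Ptgir is the receptor for prostacyclin, and all of them raise cyclic AMP in the cell. In tumours, prostaglandin E2 is known for dampening the immune functions of myeloid cells. The 10 genes named here were found by symbol, each in exactly 1 of the 30819 gene rows, and all 10 passed the filter on low values in every comparison.

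The RNA came from macrophages and monocytes sorted from MN/MCA1 sarcomas, a transplantable mouse fibrosarcoma, grown under the skin of C57BL/6J mice for 21 days. The mice were wild type or C3-/-, that is, knockout for complement component C3 as whole animals, so C3 was missing from the host and not only from the sorted cells. The labels do not give the C3 genotype of the injected tumour cells, and the ages of the mice were not given in the sources used here. Macrophages were gated as CD45+ CD11b+ Ly6G- CD11c- Ly6C- F4/80+ and monocytes as CD45+ CD11b+ Ly6G- CD11c- F4/80- Ly6C+, after digestion of the tumour with collagenase. Mice 1 to 4 were wild type and mice 6 to 9 knockout, and each mouse gave 1 library of either cell type, so there were 4 groups of 4 libraries. The study asked how loss of C3 changes both cell types inside the tumour.

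Depth ran from 18689742 to 29049163 recovered reads per library. C3 transcript was lower in every knockout library than in any wild-type library of the same cell type, at 1077 to 1390 against 3262 to 4830 normalized reads in macrophages and 4624 to 5204 against 14607 to 16130 in monocytes, and was not absent. The sorted populations matched their gates: Ly6c2 reached at most 19.1 normalized reads in macrophages and at least 11306 in monocytes, and Adgre1, which encodes F4/80, was at least 22022 in macrophages and at most 8647 in monocytes. The knockout monocyte libraries of mice 7 and 8 stood apart: Ngp, a neutrophil granule transcript, was at 4484 and 3262 normalized reads there and at most 3.70 in the other 14 libraries, while Ly6g stayed at or below 3.70 in all 16. Where a call given below was lost without these libraries, the value without them stands beside it. In bulk RNA, fewer cells that express a gene and less RNA of it per cell cannot be told apart.

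A normalized read count here is the number of reads recovered from the deposited values, divided by the library's size factor, and is not corrected for gene length. Differences and their standard errors (SE) are on the deposited log2 scale. That scale draws the values of a gene together, at high levels as well as low. A fold of mean normalized reads is thus larger than the log2 difference beside it would give. Tests are limma fits over all genes with Benjamini-Hochberg adjustment over all genes tested, and a gene is called at an adjusted p under 0.05. Between wild-type macrophages and monocytes, 8 of the 10 genes were called, 3 of them higher and 5 lower in macrophages, where 63.4% of all tested genes were called (31.7% higher and 31.7% lower). Between the cell types of knockout mice, 9 of 10 were called, 4 higher and 5 lower, against 60.5% of all tested genes (31.0% higher and 29.6% lower). The median size of the difference over the 10 genes, sign aside, was 1.03 in wild type and 0.75 in knockout, and over all tested genes 0.32 and 0.31. Between genotypes, 1 of 10 was called lower in knockout macrophages, beside 5.7% of all genes called in either direction (2.57% higher and 3.13% lower). In knockout monocytes 1 of 10 was called higher, beside 3.32% of all genes called (1.4% higher and 1.92% lower).

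**Figure D1:**
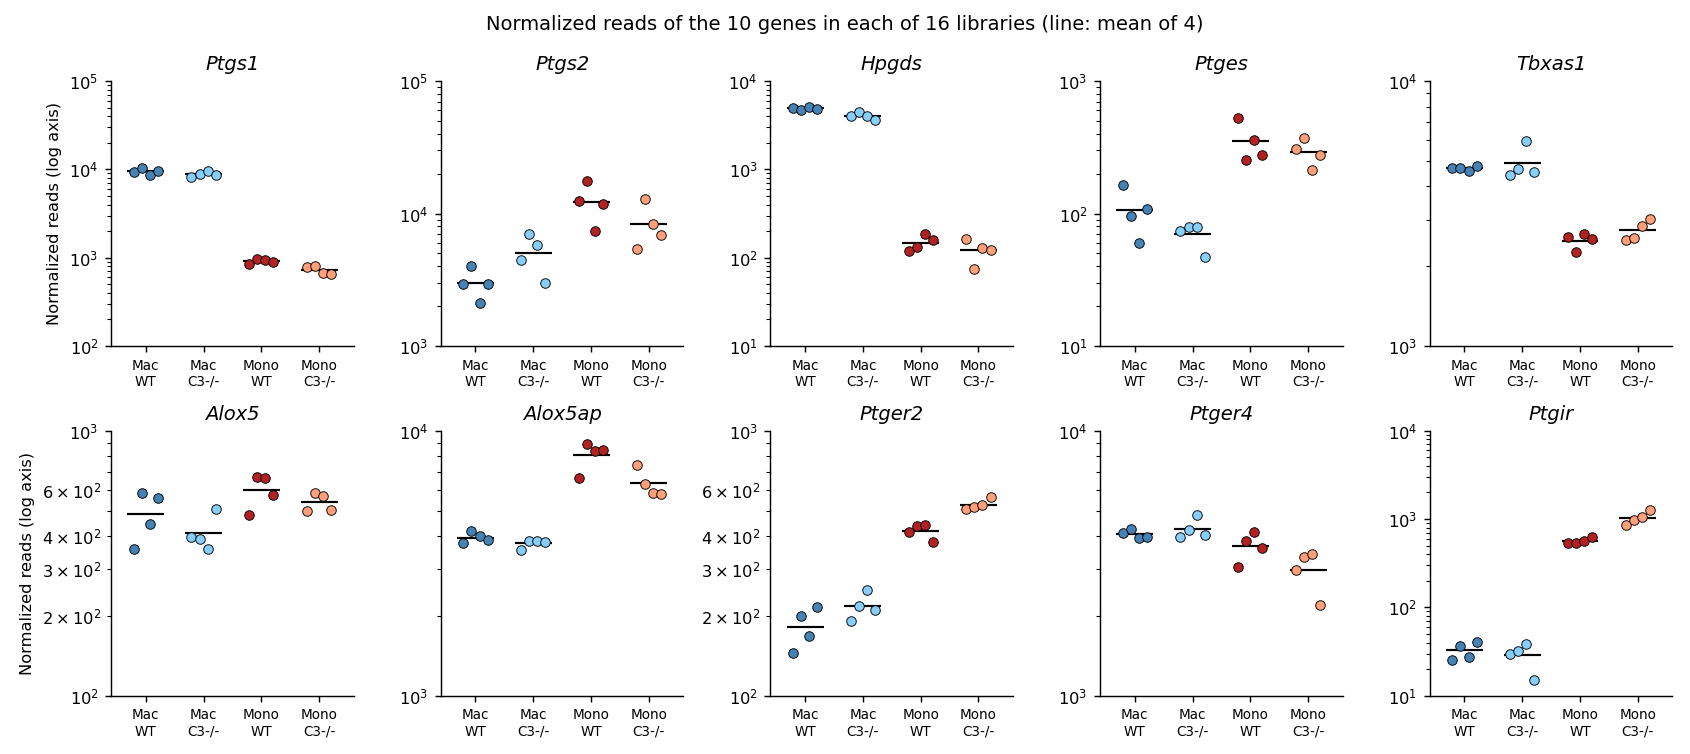
Normalized reads of the 10 genes in each library (vertical log axis), in wild-type and C3-/- macrophages (Mac) and monocytes (Mono). Each point is 1 mouse and each line the mean of 4. Ptgs1 and Hpgds sit far higher in macrophages, Ptgir far higher in monocytes, and Ptgs2 spreads most widely among mice of 1 group among the 4 genes whose mean exceeds 1000 in every group.

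The cyclooxygenase genes lay on opposite sides of the cell types. Ptgs1, the constitutive enzyme (GRCm38 chr2:36230426-36252272, plus strand), was at 9377, 10301, 8657 and 9642 normalized reads in wild-type macrophages and at 845, 965, 945 and 894 in monocytes of the same mice. Ptgs2, the inducible enzyme (chr1:150100031-150108227, plus strand), was at 2934, 4022, 2102 and 2936 in those macrophages and at 12368, 17621, 7439 and 11845 in the monocytes. For both genes the cell types did not overlap in wild-type mice, in opposite directions, as was so for 57.6% of all tested genes. Ptgs1 was 10.4-fold higher in macrophages (log2 difference 2.41, SE 0.05, adjusted p = 3.74e-11) and Ptgs2 was 4.11-fold higher in monocytes (log2 difference -1.43, SE 0.20, adjusted p = 0.000328). Per kilobase of exon, the ratio of Ptgs1 to Ptgs2 reads was 3.88 ± 0.75 (SD, n = 4) in wild-type macrophages and 0.0960 ± 0.0373 (SD, n = 4) in wild-type monocytes. In knockout mice the ratios were 2.26 ± 0.81 and 0.113 ± 0.042 (SD, n = 4 each).

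The 250 bases before the RefSeq start (GRCm38.p6) are shown for Ptgs1, Ptgs2 and Ptgir, as cyclooxygenases on opposite sides of the cell types and the member with the lowest adjusted p between genotypes. The letters searched on both strands were TATAAA, known as the TATA box, and TGACG, the core of a cyclic AMP response element. CACGTG, the E-box, and TGANTCA, the AP-1 motif, were searched too. So were GAGGAA, the core bound by PU.1, GGGCGG, the GC box, and TTNCNNAA, the motif of C/EBP factors. No 2 matches overlapped in these 3 windows. Matches stand in capitals.
Ptgs1, chr2:36230176-36230425, plus strand: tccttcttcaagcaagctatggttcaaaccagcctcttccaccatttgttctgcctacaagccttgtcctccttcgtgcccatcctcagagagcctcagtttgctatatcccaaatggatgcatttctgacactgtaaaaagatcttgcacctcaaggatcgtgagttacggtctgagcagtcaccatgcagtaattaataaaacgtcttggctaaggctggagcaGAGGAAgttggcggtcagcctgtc
Ptgs2, chr1:150099781-150100030, plus strand: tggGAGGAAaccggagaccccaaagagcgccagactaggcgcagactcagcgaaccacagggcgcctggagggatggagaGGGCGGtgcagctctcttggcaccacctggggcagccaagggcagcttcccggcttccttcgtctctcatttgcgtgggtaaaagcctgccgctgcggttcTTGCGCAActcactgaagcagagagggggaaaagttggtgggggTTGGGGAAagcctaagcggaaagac
Ptgir, chr7:16906240-16906489, plus strand: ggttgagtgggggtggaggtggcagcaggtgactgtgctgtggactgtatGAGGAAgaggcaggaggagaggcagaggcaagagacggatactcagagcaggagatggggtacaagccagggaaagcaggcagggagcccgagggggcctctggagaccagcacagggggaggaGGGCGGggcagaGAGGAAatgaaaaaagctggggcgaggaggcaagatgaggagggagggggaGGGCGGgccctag
Ptgs1 held 1 match, a PU.1 core at base -24 counted from the start. Ptgs2 held a PU.1 core at -247, a GC box at -170 and C/EBP letters at -69 and -25. Ptgir held 2 PU.1 cores at -200 and -64 and 2 GC boxes at -76 and -13. Among 32851 mouse promoters of the same length, the PU.1 core occurred in 23.3%, the GC box in 32.7% and the C/EBP letters in 36.8%. These matches are descriptions of letters, not of bound sites. Bases past the start, or further before it than 250, were not searched, so letters lying there were not seen. RefSeq promoters were matched for 9 of the 10 genes, all except Alox5ap.

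In knockout mice the cyclooxygenases kept their order between cell types, and Ptgs2 did so with a narrower gap. Ptgs1 was at 8178, 8940, 9701 and 8665 normalized reads in knockout macrophages (mice 6 to 9) and at 789, 799, 679 and 654 in knockout monocytes. Ptgs2 was at 4493, 6992, 5772 and 3002 in knockout macrophages and at 5402, 12905, 8309 and 6931 in knockout monocytes. Ptgs1 did not overlap between the cell types, like 55.2% of all tested genes (log2 difference 2.53, SE 0.06, adjusted p = 1.43e-11), while the Ptgs2 ranges overlapped. The Ptgs2 difference of -0.52 (SE 0.25) was not called without regard to the mouse (limma adjusted p = 0.112) and was called with the mouse as a replicate block (SE 0.10, adjusted p = 0.00306), where 60.9% of all genes were called. In all 8 mice, Ptgs2 was higher in the monocytes than in the macrophages of the same animal.

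The Ptgs2 gap within a mouse was narrower in each knockout animal than in any wild-type animal, though the test of this difference was not called. Monocytes held 3.54 to 4.38 times the Ptgs2 reads of the macrophages of the same wild-type mouse, and 1.202 to 2.31 times in knockout mice. On the deposited log2 scale, the macrophage minus monocyte differences were -1.48, -1.56, -1.25 and -1.43 in wild-type mice and -0.19, -0.65, -0.38 and -0.84 in knockout mice, with no overlap. Such separation was seen for 2 of the 10 genes, Ptgs2 and Ptgir, and for 8.27% of all tested genes. In the limma fit over all 16 libraries the difference of the knockout effects was 0.92 (95% confidence interval 0.19 to 1.64), which did not pass adjustment over all genes (unadjusted p = 0.0173, adjusted p = 0.301, and 0.183 with the mouse as a replicate block).

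**Figure D2:**
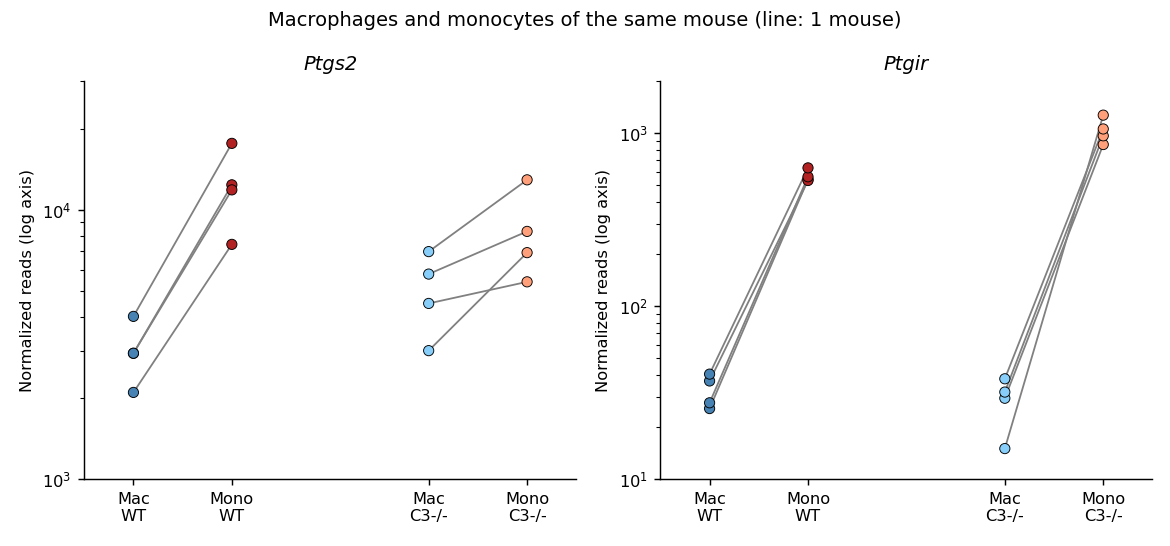
Ptgs2 and Ptgir in macrophages (Mac) and monocytes (Mono) of the same mouse (vertical log axis, normalized reads), with 1 line per mouse and 4 mice per genotype. The Ptgs2 lines are flatter in C3-/- mice, at 1.202 to 2.31 times against 3.54 to 4.38 times in wild type, and the Ptgir lines are steeper.

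Of the 4 members with a mean above 1000 normalized reads in every group, Ptgs2 varied most among mice of 1 group, and mice tended to rank alike in both cell types. Its coefficient of variation was 26.3% to 38.6% in the 4 groups, against 5.93% to 10.2% for Ptgs1, whose mean in monocytes was below that level. Ptges, at lower levels, also spread widely, at 40.4% in wild-type macrophages and 35.5% in wild-type monocytes. In knockout mice its coefficient was 22.2% in macrophages and 23.0% in monocytes. Mouse 2 had the highest and mouse 3 the lowest Ptgs2 of the wild-type mice in macrophages and again in monocytes, and mouse 7 had the highest of the knockout mice in both. By genotype, Ptgs2 was 1.69-fold higher on average in knockout macrophages (log2 difference 0.50, SE 0.21, adjusted p = 0.236) and 1.47-fold higher in wild-type than in knockout monocytes (difference -0.42, SE 0.23, adjusted p = 0.414). The groups overlapped in both cell types and neither difference was called. Ptgs1 did not overlap between wild-type and knockout monocytes (log2 difference -0.20, SE 0.06), as was so for 11.1% of all tested genes, and its limma adjusted p of 0.0999 missed the threshold. Fitting all 16 libraries together gave a call (adjusted p = 0.0314), a setting that called 7.62% of all genes, and likewise in the authors' deposited table (log2 fold change -0.32, adjusted p = 0.00587), which called 9.43%. Ptgs1 in macrophages overlapped between genotypes (difference -0.08, adjusted p = 0.476).

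Over the 16 libraries, the gene most like Ptgs1 by Pearson correlation of the deposited log2 values was Hpgds (r = 0.995), followed by Fads1 and Ntpcr (r = 0.994 each), among 10103 genes with a mean linear value of at least 50. The genes most like Ptgs2 were Dusp5 (r = 0.961), Snx18 (r = 0.956) and Ets1 (r = 0.944). These correlations describe libraries that share 2 cell types and 8 mice, so much of each is the step between the cell types.

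**Figure D3:**
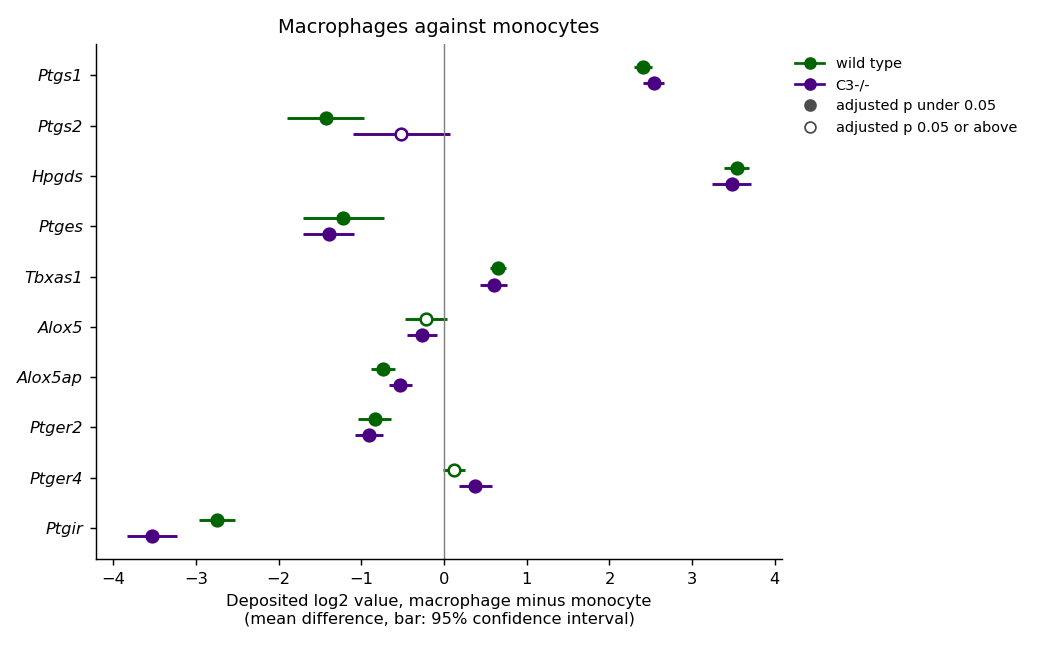
Difference of the deposited log2 values, macrophage minus monocyte (horizontal axis), for the 10 genes in wild-type and C3-/- mice, with 95% confidence intervals. Filled points were called at an adjusted p under 0.05. Ptgs1, Hpgds and Tbxas1 lie right of 0 and Ptgs2, Ptges, Alox5ap, Ptger2 and Ptgir left of it in both genotypes.

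The terminal synthases also split by cell type. Hpgds, the synthase of prostaglandin D2 (chr6:65117293-65144908, minus strand), was at 4943, 4755, 5123 and 4818 normalized reads in wild-type macrophages and at 120, 132, 185 and 157 in wild-type monocytes. It was the member with the widest macrophage excess, 33.1-fold in wild type (log2 difference 3.54, SE 0.07, adjusted p = 3.74e-11) and 32.9-fold in knockout (3.48, SE 0.11, adjusted p = 4.01e-10). Tbxas1, the thromboxane synthase (chr6:38875404-39084585, plus strand), was at 4594 to 4772 in wild-type macrophages and 2254 to 2637 in wild-type monocytes, 1.87-fold higher in macrophages (log2 difference 0.65, SE 0.04, adjusted p = 1.94e-07). Ptges, the inducible microsomal synthase of prostaglandin E2 (chr2:30889471-30929863, minus strand), went the other way. It was at 164, 96.5, 60.02 and 107 in wild-type macrophages and at 530, 253, 359 and 275 in wild-type monocytes, with no overlap, 3.31-fold higher in monocytes (log2 difference -1.22, SE 0.22, adjusted p = 0.000789). In knockout mice the Tbxas1 difference was 0.60 (SE 0.07, adjusted p = 1.89e-05) and the Ptges difference -1.39 (SE 0.14, adjusted p = 3.70e-06). The 7 fibroblast and sarcoma cell markers together were also higher in monocytes by sum. In wild type they summed to 819 to 2222 normalized reads in macrophages and 3362 to 6576 in monocytes. Knockout sums were 172 to 927 and 789 to 5765, which overlapped. The part of such RNA in the Ptges difference between the cell types was not tested.

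Per kilobase of exon, Hpgds reads were 32.1 ± 14.4 (SD, n = 4) times the Ptges reads in wild-type macrophages and 0.281 ± 0.096 (SD, n = 4) times in wild-type monocytes. Within macrophages Hpgds was thus the higher of this pair in every library (18.4 to 52.2 times in wild type, 31.1 to 46.9 in knockout), and within monocytes the lower in every library (0.138 to 0.350 and 0.122 to 0.375). The ratio leaves out Ptges2 and Ptges3, also listed under prostanoid synthesis. Their means were 517 and 1454 normalized reads in wild-type macrophages and 426 and 1234 in wild-type monocytes. Ptges2 was called higher in wild-type macrophages (log2 difference 0.20, limma adjusted p = 0.0208), a call lost in 3 of 15 alternatives. Mast cells and platelets are other known sources of Hpgds and Tbxas1 transcript. Of 9 mast cell and basophil markers, 7 were in the matrix and together reached 1.06 to 12.3 normalized reads in macrophages and 1.93 to 63.4 in monocytes, and Cpa3 was at most 8.94. Of 7 platelet and megakaryocyte markers, 5 were in the matrix and summed to 31.4 to 179 in macrophages and 55.4 to 454 in monocytes, nearly all of it Ppbp, while Gp9 was at most 1.62.

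Hpgds was the member called by genotype in macrophages. Knockout macrophages held 4059, 4468, 4036 and 3604 normalized reads, all below the 4755 of the lowest wild-type library, a separation seen for 13.1% of all tested genes. The mean fell by 0.22 on the log2 scale (SE 0.05, 95% confidence interval -0.34 to -0.11, limma adjusted p = 0.0242), 1.21-fold lower in knockout. Fitting all 16 libraries together removed the call (adjusted p = 0.251, with 4.12% of all genes called). It was also lost without the trend and robust estimation (0.0758), without the filter on low values (0.0551), in the authors' deposited table (0.284, where 6.07% of all genes and 0 of the 10 were called) and on leaving out wild-type mouse 1, 2, 3 or 4 or knockout mouse 9 (0.0517 to 0.0724). In monocytes, where Hpgds was low, knockout libraries were at 164, 74.7, 130 and 122 and overlapped wild type (difference -0.17, adjusted p = 0.548). The knockout effect on Hpgds was not called as different between the cell types (difference -0.06, 95% confidence interval -0.35 to 0.23, adjusted p = 0.926). Of the other genes tested within 2.5 Mb of its start on chromosome 6, 2 of 14 were called in macrophages and 3 of 13 in monocytes (14.3% and 23.1%, against 5.7% and 3.32% of all genes). Of these, 2 were higher and 0 lower in knockout macrophages, and 2 higher and 1 lower in knockout monocytes.

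The genes most like Hpgds over the 16 libraries were Ms4a7 (r = 0.998), the complement gene C1qa (r = 0.996) and Camk1 (r = 0.996). All 3 were higher in macrophages, at 25857, 65445 and 11044 mean normalized reads in wild type against 2859, 5045 and 2182 in wild-type monocytes.

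Tbxas1 and Ptges were not called by genotype. Tbxas1 was at 4408, 4661, 5942 and 4547 in knockout macrophages against 4594 to 4772 in wild type, so mouse 8 was the one high library (difference 0.04, adjusted p = 0.795). In knockout monocytes it was at 2507, 2550, 2847 and 3021 (difference 0.09, adjusted p = 0.494). Ptges was at 73.6, 79.5, 79.4 and 47.0 in knockout macrophages, where 3 of 4 libraries fell inside the wild-type range (difference -0.36, 95% confidence interval -0.76 to 0.05, adjusted p = 0.314). The 7 fibroblast and sarcoma cell markers summed to 819 to 2222 normalized reads in wild-type and 172 to 927 in knockout macrophages, and their part in the Ptges values was not tested. In knockout monocytes Ptges was at 305, 375, 212 and 277, 3 of 4 inside the wild-type range (difference -0.18, adjusted p = 0.665).

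In the leukotriene branch, Alox5ap differed between the cell types in both genotypes and Alox5 overlapped. Alox5, the 5-lipoxygenase (chr6:116410077-116461178, minus strand), was at 357, 581, 444 and 555 normalized reads in wild-type macrophages and at 480, 669, 664 and 571 in wild-type monocytes. In knockout mice it was at 397, 391, 357 and 505 in macrophages and 497, 585, 565 and 500 in monocytes. The cell types overlapped in both genotypes. In wild type the difference of -0.22 (SE 0.12) was not called (limma adjusted p = 0.116), was called with the mouse as a replicate block (SE 0.07, adjusted p = 0.0228), where 65.8% of all genes were called, and was called without the wild-type monocyte library of mouse 1 (-0.29, adjusted p = 0.0488). In knockout it was called lower in macrophages by -0.27 (SE 0.08, adjusted p = 0.0132), but not without the monocyte libraries of mice 7 and 8 (-0.20, adjusted p = 0.134).

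Alox5ap, the protein that hands arachidonate to Alox5 (chr5:149264767-149288153, plus strand), was at 3754, 4193, 4001 and 3863 in wild-type macrophages and at 6623, 8881, 8402 and 8473 in wild-type monocytes. It did not overlap between the cell types and was 2.05-fold higher in monocytes (log2 difference -0.74, SE 0.06, adjusted p = 1.67e-06). In knockout macrophages it was at 3547, 3839, 3851 and 3804 and in knockout monocytes at 7432, 6281, 5828 and 5774, so the gap was 1.68-fold (difference -0.53, SE 0.06, adjusted p = 1.28e-05). Of the 4 knockout monocyte libraries, 3 lay below every wild-type one and that of mouse 6 lay inside the range (difference -0.26, 95% confidence interval -0.43 to -0.08, limma adjusted p = 0.109). This difference passed with all 16 libraries in 1 fit (adjusted p = 0.0201), without knockout mouse 6 (-0.32, adjusted p = 0.0475), without wild-type mouse 1 (-0.33, adjusted p = 0.0375) and likewise in the authors' deposited table (log2 fold change -0.36, adjusted p = 0.00560). Per kilobase of exon, Alox5ap reads were 24.4 ± 4.8 times those of Alox5 in wild-type macrophages and 39.4 ± 2.7 times in wild-type monocytes (SD, n = 4 each).

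Alox5 did not pass by genotype in macrophages (difference -0.15, adjusted p = 0.503) or in monocytes (-0.10, adjusted p = 0.602). The genes most like it over the libraries were only loosely so: Sipa1 (r = 0.821), Serinc5 (r = 0.820) and Dcaf6 (r = 0.816).

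Among the receptors was the member, of the 10, with the lowest adjusted p between genotypes. Ptgir, the prostacyclin receptor (chr7:16906490-16910905, plus strand), was at 541, 533, 560 and 630 normalized reads in wild-type monocytes and at 859, 965, 1057 and 1271 in knockout monocytes. Every knockout library was above every wild-type one. The mean was 1.83-fold higher in knockout monocytes (log2 difference 0.67, SE 0.09, 95% confidence interval 0.47 to 0.88, limma adjusted p = 0.00177). This call held in all 16 alternatives (adjusted p from 6.99e-07 to 0.0255), the highest value being that without the libraries of mice 7 and 8 (difference 0.70).

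In macrophages Ptgir was near the lower end of what was tested, at 25.7, 37.0, 27.7 and 40.6 in wild type against 29.4, 31.95, 38.1 and 15.1 in knockout. These groups overlapped (difference -0.11, 95% confidence interval -0.44 to 0.21, adjusted p = 0.734). Ptgir was 17.3-fold higher in wild-type monocytes than in wild-type macrophages (log2 difference -2.74, SE 0.10, adjusted p = 2.23e-09) and 36.2-fold higher in knockout monocytes than in knockout macrophages (-3.53, SE 0.14, adjusted p = 1.13e-09). Within wild-type mice the macrophage minus monocyte differences were -2.86, -2.57, -2.85 and -2.70. Within knockout mice they were -3.29, -3.37, -3.32 and -4.16, with no overlap. The test of the difference between the knockout effects of both cell types gave -0.79 (SE 0.18, unadjusted p = 0.000325, adjusted p = 0.0504), just above the threshold, so 0 of the 10 genes were called there and 0.617% of all genes were (0.358% higher and 0.259% lower). At an unadjusted p under 0.05, 4 of the 10 passed, and the share of all genes passing at that level was not counted. Limma voom on the recovered reads called 0. With the mouse as a replicate block Ptgir was called (SE 0.17, adjusted p = 0.0282) along with 1.06% of all genes, and leaving out the macrophage library of mouse 8 or the monocyte library of mouse 6 in knockout also gave a call (adjusted p = 0.0341 and 0.0354).

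Some markers of dendritic cells, which the CD11c- gate should deplete, were higher in the same knockout monocyte libraries. All 6 markers on that list were in the matrix, and their summed level was 134 to 458 normalized reads in wild-type and 463 to 1178 in knockout monocytes. The means of 4 were higher in knockout (Cd209a, Flt3, Xcr1 and Clec9a) and those of 2 lower (Ccr7, 68.5 against 45.5, and Zbtb46, 48.6 against 40.7). Most of the rise in the sum was Cd209a, with a mean of 9.12 in wild type and 421 in knockout, and Flt3, with 85.8 and 206. Cd209a was at 12.3, 2.57, 15.03 and 6.54 in wild type against 128, 147, 621 and 790 in knockout. Their part in the Ptgir difference was not tested. Of the 47 other genes tested within 2.5 Mb of the Ptgir start on chromosome 7, 3 were called in monocytes and 4 in macrophages (6.38% and 8.51%, against 3.32% and 5.7% of all genes). Of these, 1 was higher and 2 lower in knockout monocytes, and 0 higher and 4 lower in knockout macrophages.

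**Figure D4:**
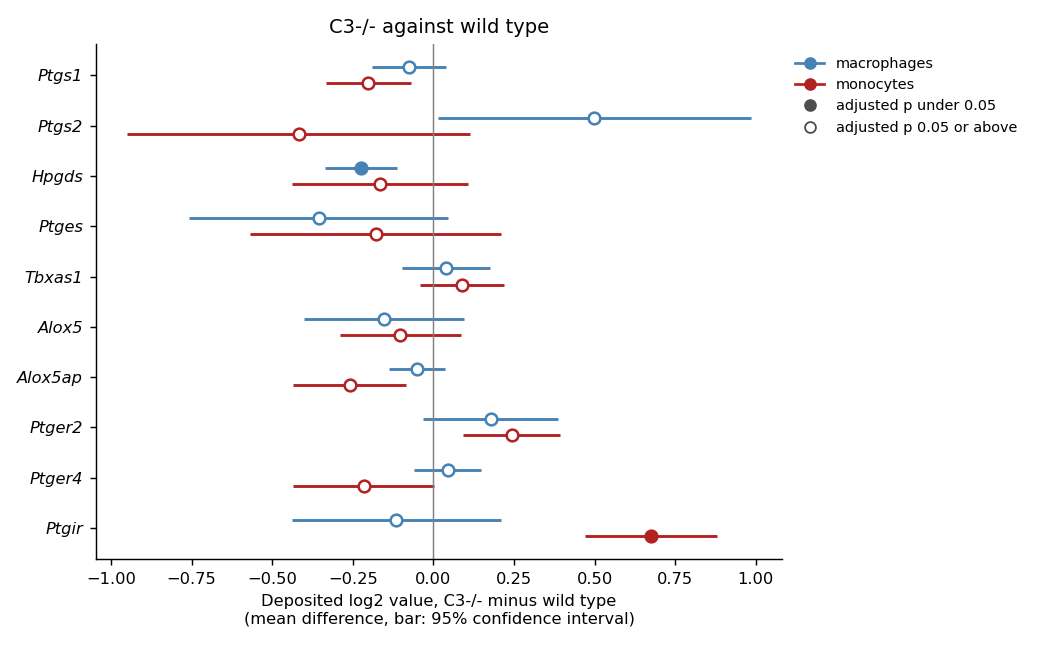
Difference of the deposited log2 values, C3-/- minus wild type (horizontal axis), for the 10 genes in macrophages and monocytes, with 95% confidence intervals. Filled points were called at an adjusted p under 0.05, which were Hpgds in macrophages (-0.22) and Ptgir in monocytes (0.67).

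Ptger2, the EP2 receptor (chr14:44988195-45003820, plus strand), was at 416, 436, 442 and 379 normalized reads in wild-type monocytes and 508, 513, 523 and 562 in knockout monocytes. The groups did not overlap, and the difference of 0.24 (SE 0.07, 95% confidence interval 0.09 to 0.39) missed the limma threshold (adjusted p = 0.0839). It was called in the authors' deposited table (log2 fold change 0.33, adjusted p = 0.0419). In macrophages Ptger2 was lower, at 144, 200, 168 and 216 in wild type against 191, 218, 250 and 211 in knockout, with overlap (difference 0.18, adjusted p = 0.340). It was 2.30-fold higher in monocytes than in macrophages of wild-type mice (log2 difference -0.84, SE 0.09, adjusted p = 9.86e-06) and 2.42-fold in knockout mice (-0.91, SE 0.08, adjusted p = 6.98e-07).

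Ptger4, the EP4 receptor (chr15:5206661-5244187, minus strand), was at 4117, 4240, 3950 and 3985 in wild-type macrophages and 3066, 3840, 4133 and 3616 in wild-type monocytes. The ranges overlapped and the difference of 0.12 (SE 0.06) was not called (limma adjusted p = 0.114). It was called when the fit used recovered reads with voom (0.29, adjusted p = 0.00578) and without the monocyte library of mouse 3 (0.16, adjusted p = 0.0312). In knockout mice it was at 3981, 4209, 4802 and 4046 in macrophages and 2981, 3346, 3429 and 2199 in monocytes, with no overlap and a called difference of 0.38 (SE 0.09, adjusted p = 0.00381). By genotype it was not called in monocytes (difference -0.22, 95% confidence interval -0.44 to 0.00224, adjusted p = 0.292) or in macrophages (0.04, adjusted p = 0.669).

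Per kilobase of exon, Ptger4 was the most abundant of the 3 receptors in all 4 groups by mean. Its reads were 64.7 ± 14.0 times those of Ptgir in wild-type macrophages and 3.26 ± 0.46 times in wild-type monocytes, and 82.9 ± 34.5 and 1.49 ± 0.42 times in knockout (SD, n = 4 each). In the knockout monocytes of mouse 9, Ptgir exceeded Ptger4 (ratio 0.868). Ptger4 reads were 17.9 ± 3.3 times those of Ptger2 in wild-type macrophages and 6.84 ± 0.76 times in wild-type monocytes (SD, n = 4 each).

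On the same scale across the 10 genes, Alox5ap was highest in all 4 groups, at 2784 ± 133 reads per kilobase in wild-type macrophages and 5701 ± 707 in wild-type monocytes (SD, n = 4 each). Ptgs1 came next in macrophages (2444 ± 175) and Ptgs2 in monocytes (2690 ± 910). Hpgds (764 ± 25), Ptgs2 (655 ± 172) and Ptger4 (613 ± 20) followed in wild-type macrophages, and the Ptgs2 libraries, at 459 to 878, spanned the values of both neighbours. In wild-type monocytes Ptger4 (551 ± 68), Tbxas1 (275 ± 19) and Ptgs1 (235 ± 14) followed, and the ranges of Tbxas1 and Ptgs1 overlapped slightly, at 248 to 290 and 217 to 249. Ptgir was lowest in macrophages (9.82 ± 2.16) and Hpgds in monocytes (23.1 ± 4.5). In knockout macrophages Ptgs2 stood above Hpgds by mean (1106 ± 374 against 629 ± 55), with ranges of 656 to 1527 and 561 to 695 that overlapped. The library kit does not mark strand, so reads from overlapping genes cannot be told apart: exons of Ptger4 overlap those of Ttc33 and Gm15937, those of Ptger2 overlap Gm49364 and Gm17173, and Ptgs1, Tbxas1 and Alox5ap each share exonic sequence with 1 other annotated gene. Levels of these genes are uncertain to that extent.

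Around the 10 genes, 59 others of the same pathway were followed, of which 55 were in the matrix. Between genotypes, 3 of 35 tested were called in macrophages, all higher in knockout, where 5.7% of all genes were called, and 3 of 39 in monocytes, all lower, where 3.32% were. Between the cell types, 26 of 38 were called in wild type (6 higher and 20 lower in macrophages, beside 63.4% of all genes) and 22 of 37 in knockout (9 higher and 13 lower, beside 60.5%). The counts between the cell types are near those shares. The median difference between the cell types over the tested genes was -0.43 in wild type and -0.18 in knockout, beside -0.00539 and 0.00301 over all tested genes.

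Among the receptors of leukotrienes, Ltb4r1, which binds leukotriene B4 and guides cells towards it, rose in knockout macrophages. It was at 111, 153, 112 and 137 normalized reads in wild-type and 263, 311, 446 and 277 in knockout macrophages. The groups did not overlap, with a 2.53-fold difference in means (log2 difference 0.77, SE 0.11, adjusted p = 0.00124) that was called in all 15 alternatives (adjusted p from 7.22e-10 to 0.00839). Its level in monocytes was much higher, at 3083 to 5312 in wild type and 3162 to 4493 in knockout, 30.8-fold and 12.1-fold above macrophages (log2 differences -3.35 and -2.59, adjusted p = 9.83e-09 and 1.21e-08). Among the monocyte markers, Ccr2 was the most abundant in macrophages, at 9971 to 12633 normalized reads in wild type and 12539 to 18934 in knockout, with overlap and a higher mean in knockout. Ly6c2, Plac8, Chil3, F13a1 and Vcan had lower means in knockout macrophages. Ly6c2 was at 3.69 to 19.1 and 1.64 to 8.47 in these groups. The part of these markers in the Ltb4r1 difference was not tested.

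Cysltr1, a receptor for the cysteinyl leukotrienes, fell in knockout monocytes. It was at 3914, 4220, 3690 and 3586 normalized reads in wild-type and 2987, 3251, 2929 and 2907 in knockout monocytes, with no overlap (log2 difference -0.25, SE 0.05, adjusted p = 0.0283). The call was lost in 9 of 16 alternatives (adjusted p up to 0.0892), 6 of which left out 1 library (knockout mouse 6, 8 or 9 or wild-type mouse 1, 2 or 3). The other 3 were the fit without the monocyte libraries of mice 7 and 8 (-0.27, adjusted p = 0.0869), that without trend and robust estimation (0.0841) and that without the filter on low values (0.0588). In macrophages it was at 3567, 3636, 3408 and 3514 in wild type against 3586, 4055, 3798 and 3777 in knockout, and the difference of the knockout effects between the cell types was called (0.33, SE 0.06, adjusted p = 0.0192), though not without the wild-type macrophage library of mouse 3 (adjusted p = 0.0545) or without trend and robust estimation (0.0519). The other receptors of the list that differed between the cell types included Fpr2, a receptor for formyl peptides and lipoxin, 4.85-fold higher in wild-type monocytes (log2 difference -1.62, adjusted p = 2.64e-08).

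Of the 4 other prostanoid enzymes tested, 0 were called by genotype in either cell type by limma or by limma voom, and 0 had an unadjusted p under 0.05. Cbr1 and Akr1b3, reductases that act on prostaglandins, were higher in macrophages of wild-type mice, 3.01-fold and 1.67-fold (log2 differences 1.13 and 0.54, adjusted p = 1.34e-06 and 0.000135). Lta4h, which makes leukotriene B4, was higher in monocytes, 1.87-fold in wild type and 1.36-fold in knockout (differences -0.64 and -0.32, adjusted p = 4.68e-06 and 0.000205). Mgst3, a glutathione transferase linked to leukotriene C4 synthesis, fell in knockout monocytes from 475 ± 44 to 314 ± 67 normalized reads (SD, n = 4 each, log2 difference -0.43, adjusted p = 0.0430). Pla2g4a, the cytosolic phospholipase that frees arachidonate, was at 3253 ± 170 in wild-type macrophages and 3029 ± 555 in wild-type monocytes (SD, n = 4 each) and was not called by genotype.

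Of 9 enzymes and carriers of inactivation and transport tested, 6 were called higher in monocytes and 2 in macrophages of wild-type mice. In knockout mice these counts were 5 and 2. Of all genes, 63.4% were called in wild type and 60.5% in knockout. The 2 higher in macrophages in both genotypes were Ptgr2, a prostaglandin reductase (1.45-fold in wild type, log2 difference 0.39, adjusted p = 9.35e-05), and Ggt5, which acts on leukotriene C4 (1.42-fold, 0.35, adjusted p = 0.0181). Hpgd, which oxidises and inactivates prostaglandins, was at 219 ± 51 normalized reads in wild-type macrophages and 828 ± 233 in wild-type monocytes (SD, n = 4 each), 3.78-fold higher in monocytes (log2 difference -1.32, adjusted p = 5.85e-05). Abcc4, an exporter of prostaglandins, rose in knockout macrophages from 704 ± 67 to 942 ± 76 (SD, n = 4 each, log2 difference 0.29, adjusted p = 0.0147), a call that held in all 15 alternatives. Ptgr1, a reductase that inactivates leukotriene B4 and prostaglandins, fell in knockout monocytes from 569 ± 51 to 420 ± 34 (SD, n = 4 each, difference -0.31, adjusted p = 0.0408). The Mgst3 and Ptgr1 calls were lost in 10 and 11 of 16 alternatives, among them those without mice 7 and 8 (adjusted p = 0.196 and 0.221) and those without any 1 library other than that of knockout mouse 6.

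Cyclic AMP is what Ptger2, Ptger4 and Ptgir raise, and 10 genes known to be induced through it were listed. In wild-type mice 8 of 10 were called (63.4% of all genes were), 7 higher in monocytes and 1, Il10, higher in macrophages. In knockout mice 3 of 10 were called (60.5% of all genes were), 2 higher in monocytes and Il10 again in macrophages, and limma voom called 5. The difference of the knockout effects between the cell types was called by limma for 0 of the 10, beside 0.617% of all genes. At an unadjusted p under 0.05, 4 of the 10 passed, and limma voom called 0. By genotype, 1 of 10 was called in macrophages by limma, near the 5.7% of all genes. In these cells 4 had an unadjusted p under 0.05 and limma voom called 1. In monocytes 0 of 10 were called by limma (3.32% of all genes), 4 had an unadjusted p under 0.05 and limma voom called 0. For all of these counts at an unadjusted p, the share of all genes was not counted. Nr4a2, an orphan nuclear receptor and early response gene, was the one called, at 453, 590, 374 and 658 normalized reads in wild-type and 851, 1158, 1329 and 1032 in knockout macrophages (log2 difference 0.76, SE 0.13, adjusted p = 0.01004, called in all 15 alternatives). Crem, a gene induced by cyclic AMP that encodes its repressor, was at 521, 536, 386 and 607 in wild-type macrophages, against 598, 1144, 1257 and 1072 in knockout, with overlap, and was not called (adjusted p = 0.0602). Nr4a1 was 6.18-fold higher in wild-type monocytes than in macrophages and 3.80-fold in knockout (log2 differences -1.88 and -1.36, adjusted p = 3.78e-08 and 3.81e-05).

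**Figure D5:**
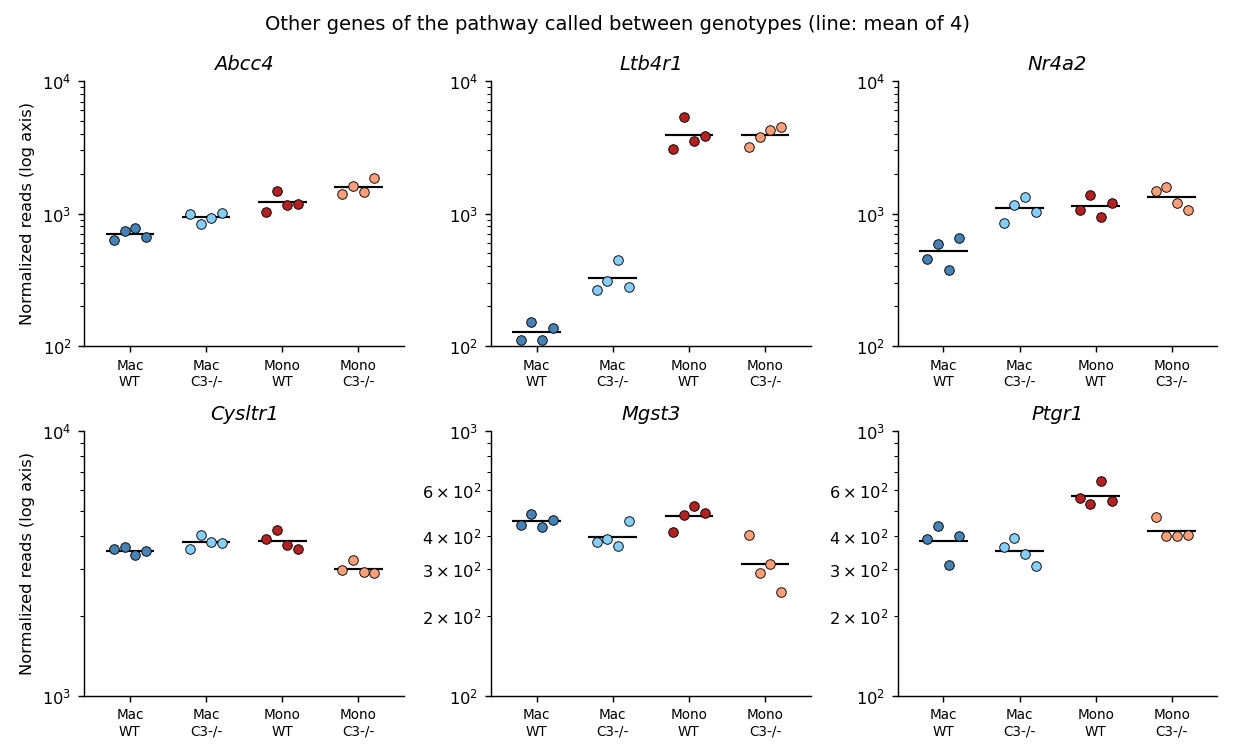
Normalized reads (vertical log axis) of the 6 other pathway genes called between genotypes in 1 of the cell types, in wild-type and C3-/- macrophages (Mac) and monocytes (Mono). Each point is 1 mouse and each line the mean of 4. Ltb4r1, Abcc4 and Nr4a2 are higher in C3-/- macrophages, and Cysltr1, Mgst3 and Ptgr1 lower in C3-/- monocytes.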

How the data were processed

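The SMART-Seq v4 kit was used on 5 ng of RNA and does not mark strand, per the labels' protocols. Tools named in the submitters' processing notes are bcl2fastq 2.19.0.316, STAR 2.7.2b and, with no version, DESeq2, and the build named is GRCm38. What each tool did, and the annotation, is not given in the sources used here. For 30819 genes the authors deposited log2 values in 16 libraries (0 columns belonged to other samples). No header names the transform, which was inferred from the values to be a regularized logarithm. Each cell type has a comparison table, in which, per the file headers, the base mean is a signal deposited as a mean of scaled reads. The deposited Wald statistic is a score, and the p-value columns hold the authors' own values, with adjusted ones for 14087 genes. Deposited fold changes were turned to knockout minus wild type.

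The transform was undone with the base mean to recover reads. At base means of at least 1, 78.4% of values came within 0.05 of a whole number, and 99.7% of genes returned their base mean to within 1%. Normalized reads are recovered reads over the size factor. Exon lengths and gene positions are from GENCODE M21 on GRCm38.

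The test was limma 3.58.1 (R 4.3.3) with trend and robust estimation on the deposited log2 values, for genes at a linear value of 10 or more in 4 or more libraries, and it was tested on simulated data. A comparison of 2 groups was fitted to their 8 libraries, and the difference of the knockout effects to all 16. An exact permutation test of 4 against 4 libraries cannot go below p = 0.0286 and was not used. The titles give both cell types of a mouse 1 number, so cell types are paired by mouse: deviations from the group means correlated at 0.0306 to 0.417 within a mouse and at -0.323 to 0.188 between mice. Genotypes are not paired. The text names all 10 genes, C3, some of the other pathway genes, and for 4 genes the 3 most correlated ones. Not all of the other pathway genes called in at least 1 comparison are named. The members and lists were chosen with earlier results of these data known. Alternatives were other filters, scalings and fits, the mouse block, voom on recovered reads, and each library left out. Leaving out the monocyte libraries of mice 7 and 8 was added after seeing the data. Of the monocyte marker list, 1 gene is not reported here.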

Additional observations from a re-analysis of the deposited data

Results flagged for a closer look

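In 40 groups of 4 libraries (10 genes in 4 groups), 2 had 1 library unusually far from its neighbours for the range of its group, by Dixon's ratio at the 95% level. Chance alone gives about 1 in 20 groups.

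Ptges in the knockout macrophages of mouse 9 was the lowest of its group, with a deposited log2 value of 6.22 against 6.60 for the next library (ratio of gap to range 0.844) and 47.0 normalized reads. Alox5ap in the knockout macrophages of mouse 6 was also the lowest of its group, with a log2 value of 11.96 against 12.03 (ratio 0.847) and 3547 normalized reads. Neither gene was called between genotypes in macrophages, with or without these libraries.

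For Cysltr1, a receptor for cysteinyl leukotrienes, the knockout effect differed between the cell types by a test of the difference itself (0.33 on the deposited log2 scale, limma adjusted p = 0.0192). This call was lost without the wild-type macrophage library of mouse 3 (0.0545) and without trend and robust estimation (0.0519). It was lower in knockout monocytes (-0.25, adjusted p = 0.0283, and 0.0869 without mice 7 and 8), and its macrophage values overlapped between genotypes.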

How the results depend on the processing

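Of the 10 genes, the number called by genotype in macrophages went from 1 to 0 with all 16 libraries fitted together, without trend and robust estimation, without the filter and in the authors' deposited table, and was 0 to 1 on leaving out 1 library. In monocytes it went from 1 to 3 with all 16 libraries and 4 in the authors' deposited table, and was 1 to 2 on leaving out 1 library. For the difference of the knockout effects it went from 0 to 1 with the filter at 50, with libraries recentred and with the mouse as a replicate block, and was 0 to 1 on leaving out 1 library. Over all genes, the macrophage count of 717 was 458 (without wild-type mouse 2) to 656 on leaving out 1 library. The monocyte count of 427 was 981 with all 16 libraries, 254 without mice 7 and 8, 1329 in the authors' deposited table and 237 to 459 on leaving out 1 library, and moved by over 1.5 times without knockout mouse 8 or 9 or wild-type mouse 2, 3 or 4. The count of 81 for the difference of effects was 139 with the replicate block, 48 without the macrophages of wild-type mouse 3 and 125 without the monocytes of knockout mouse 7. The block changed no call of the 10 genes other than those of Alox5, Ptgs2 and Ptgir given above. Between the cell types, 8 to 10 of the genes were called in either genotype under every alternative run.

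Uncalled differences changed sign on leaving out libraries. By genotype in macrophages, Tbxas1 ranged from -0.0328 (without knockout mouse 8) to 0.0729 and Ptgir from -0.196 to 0.0132 (without knockout mouse 9). For the difference of the knockout effects, Hpgds ranged from -0.169 to 0.0250 (without the monocytes of mouse 6) and Alox5 from -0.147 to 0.0199 (without the monocytes of mouse 1), with positive values also without the macrophages of mouse 2 or 4 and without both monocyte libraries of mice 7 and 8 (0.0218). Taken as powers of the deposited log2 value, levels moved in both directions: Ptgir in wild-type macrophages was 62.4 in place of 32.7 normalized reads, and Ptgs1 there 7034 in place of 9494. Normalized reads were recovered by undoing the inferred transform, which draws the values of a gene together, so both measures differ by construction.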
